A study of Mus musculus with 9 samples.

Results

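Binding of HOXA13 was compared with binding of HOXD13 in wild-type (wt) distal forelimb cells of mouse embryos at E12.5. Both proteins were mapped by CUT&RUN, in which an antibody tethers micrococcal nuclease to a DNA-binding protein in permeabilized cells and the released fragments are sequenced. The comparison used 6 of the 9 libraries of the series, 3 made with the HOXA13 antibody and 3 with the HOXD13 antibody. All 6 came from untreated wild-type embryos of the B6CBAF1 background, for which the labels give crosses of heterozygous adults, and no library was shared between the groups. The other libraries came from a mutant line and were not used here. Peaks had been called in each library on its own, and intervals of the 6 lists that overlapped by at least 1 bp were merged on chromosomes 1 to 19, X and Y. This gave 138424 merged sites. Each site was scored by how many of the 3 lists of each antibody called it and was assigned to the nearest start of a protein-coding gene, among 21827 genes.

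HOXA13 and HOXD13 are the most posterior members of the HoxA and HoxD clusters that are active in the limb. They are homeodomain transcription factors with closely related DNA-binding domains. Both are expressed in the distal limb bud, from which the digits form, and loss of both removes the digits far more completely than loss of either one. There they act through enhancers that lie far from the genes they control, including enhancers of the HoxD cluster itself. HOX13 proteins prefer AT-rich sites with a TAAA core. The consensus searched here comprised CCNATAAA, CCNGTAAA, CTNATAAA and CTNGTAAA on either strand, and 1 of its forms, CCAATAAA, was also counted alone.

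The whole HOXA13 lists held 86865, 58568 and 57311 intervals in replicates 1 to 3, and the HOXD13 lists held 23890, 76754 and 37537. Mean numbers were 67581 ± 16712 and 46060 ± 27443 (SD, n = 3 each), so the groups overlapped. The libraries held between 36.9 and 59.8 M read ends, as recovered from the deposited values, and the longest HOXD13 list belonged to the deepest of them. Median fold enrichment over the local background, at the main summit of each interval, lay between 3.24 and 3.90 in all 6 lists. Replicates 3 of both antibodies were sequenced with longer reads than the others, and HOXD13 replicate 3 is a re-analysis of an earlier library. Neither group had a control library or a list from cells lacking the factor, so the factor and its antibody cannot be told apart in any difference given here. The study's statistics section describes separate pools of tissue, each from several embryos, and different litters. Its CUT&RUN methods instead name pools from individual embryos. The p-values therefore measure the spread between libraries, and what embryos each library holds is not settled.

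Each list was checked for the HOX13 consensus at its summits. The consensus is common to both factors, so this check cannot tell the antibodies apart. Among the 10000 intervals of each list with the highest −log10 p, the HOX13 consensus lay within the 50 bp centred on the summit of 20.8%, 20.8% and 15.5% of HOXA13 intervals and 14.3%, 13.2% and 10.1% of HOXD13 intervals. Windows of the same length, 1000 bp to either side, held it in 1.99% to 2.43% of cases. Every library was therefore above its own flanks.

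As examples, sequences that reach 50 bp to either side of a summit follow. They are on the plus strand of GRCm38 (the assembly of mm10), with the consensus in capitals. They were picked from sites near genes of the lists used below, in order of median enrichment percentile, among windows that hold the consensus and overlap no annotated exon. The presence of the consensus in them is therefore no result, and sites near other genes ranked higher. Of the picks, those nearest Zfp870, Rps29, Thra and Stk26 are not printed. The first 3 were called in all 6 lists. They lie 197147 bp from Lnpk, a neighbour of the HoxD cluster, in an intron of Ror2, a receptor of the Wnt pathway, and 5631 bp from Hoxc11.
Lnpk, chr2:74381026-74381126: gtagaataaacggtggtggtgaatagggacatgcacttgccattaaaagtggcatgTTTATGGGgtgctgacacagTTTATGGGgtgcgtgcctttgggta
Ror2, chr13:53258962-53259062: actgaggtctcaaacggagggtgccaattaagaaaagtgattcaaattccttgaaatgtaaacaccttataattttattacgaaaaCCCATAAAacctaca
Hoxc11, chr15:102960008-102960108: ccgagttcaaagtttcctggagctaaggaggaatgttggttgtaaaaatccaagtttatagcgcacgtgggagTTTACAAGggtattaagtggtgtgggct
The next 3 were called in all 3 HOXA13 lists and in no HOXD13 list. Their nearest genes are Col11a1, a cartilage collagen, Sema3a, a secreted guidance molecule, and Eya4, a transcriptional coactivator, and none of these sites lies in a protein-coding gene.
Col11a1, chr3:114316514-114316614: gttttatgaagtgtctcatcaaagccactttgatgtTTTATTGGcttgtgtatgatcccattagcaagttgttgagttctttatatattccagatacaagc
Sema3a, chr5:13036440-13036540: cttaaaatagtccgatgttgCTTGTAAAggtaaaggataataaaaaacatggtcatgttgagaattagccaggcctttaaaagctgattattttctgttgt
Eya4, chr10:23379429-23379529: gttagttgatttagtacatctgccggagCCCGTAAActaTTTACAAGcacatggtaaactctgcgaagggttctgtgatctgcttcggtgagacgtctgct
The last 2 were called in all 3 HOXD13 lists and in no HOXA13 list. No gene of the lists qualified for this class, so all genes were allowed, and the nearest genes of those printed are Myoz2, a muscle Z-disc protein, and Ralyl, an RNA-binding protein.
Myoz2, chr3:123072898-123072998: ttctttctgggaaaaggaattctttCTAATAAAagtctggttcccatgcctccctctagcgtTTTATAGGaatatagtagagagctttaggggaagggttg
Ralyl, chr3:12504918-12505018: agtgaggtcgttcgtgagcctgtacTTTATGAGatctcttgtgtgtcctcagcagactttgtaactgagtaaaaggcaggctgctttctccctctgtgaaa
The Lnpk site carried the consensus 2 times, the Eya4 site 2 times in 2 forms, and the Myoz2 site 2 times in 2 forms. At the Ror2, Hoxc11 and Sema3a sites the match is not fully inside the 50 bp centred on the summit. Those sites therefore count as lacking the consensus in the shares of site classes below.

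Most sites that were called reproducibly were called with both antibodies. Of the 138424 sites, 13891 (10.0%) were called in all 6 lists, 1827 (1.32%) in 3 HOXA13 lists and no HOXD13 list, and 44 (0.0318%) in 3 HOXD13 lists and no HOXA13 list. These are called shared, HOXA13-only and HOXD13-only sites below. A further 43584 sites were called in a single HOXA13 list alone and 26490 in a single HOXD13 list alone. Leaving out 1 list loosens the rule and raised both exclusive classes. HOXA13-only sites numbered 4544 without HOXA13 replicate 2, 6076 without HOXA13 replicate 3, 6546 without HOXD13 replicate 2 and 2873 without HOXD13 replicate 3. HOXD13-only sites numbered 475 without HOXD13 replicate 1, 72 and 202 without HOXD13 replicates 2 and 3, and 193 and 88 without HOXA13 replicates 1 and 3. The excess of HOXA13-only over HOXD13-only sites depended on the length of the lists. When each list was cut to its 20000 intervals of highest −log10 p, 39131 merged sites remained, of which 7020 (17.9%) were shared, 567 (1.45%) HOXA13-only and 468 (1.20%) HOXD13-only.

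Sites exclusive to either antibody in the equal lists were mostly weaker calls of the other antibody. Only 32 of the 567 HOXA13-only sites (5.64%) were called in no whole HOXD13 list, and 47 (8.29%) were called in all 3. The whole lists of HOXD13 replicates 1 to 3 called 12.9%, 91.7% and 47.8% of them, which follows the order of the lengths of those lists. Of the 468 HOXD13-only sites, 8 (1.71%) were called in no whole HOXA13 list and 277 (59.2%) in all 3. The grid of sites by number of lists shows both versions.

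**Figure D1:**
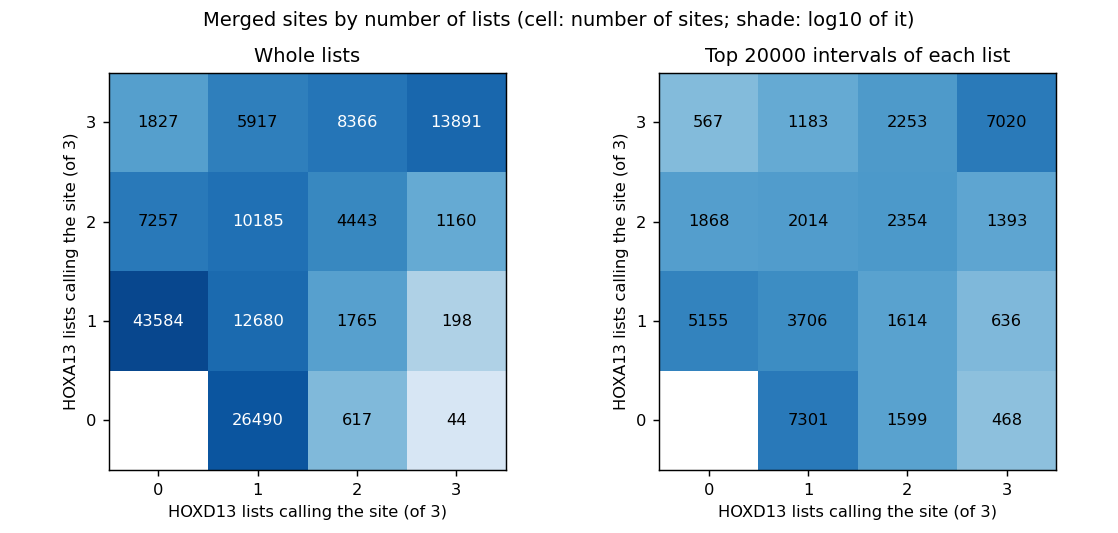
Number of merged sites by how many of the 3 HOXA13 lists (vertical axis) and 3 HOXD13 lists (horizontal axis) called them, for whole lists (left) and the top 20000 intervals of each list (right). Each cell gives its number of sites and its shade the log10 of that number. The corners of 1 antibody hold 1827 and 44 sites in whole lists but 567 and 468 in lists of equal length.

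Shared sites were the highest in every list. Their median fold enrichment was 8.31, 6.35 and 4.47 in HOXA13 replicates 1 to 3, against 4.30, 3.48 and 3.12 at HOXA13-only sites. In HOXD13 replicates 1 to 3 it was 4.49, 6.49 and 4.15, against 3.32, 3.40 and 3.27 at HOXD13-only sites. Shared sites were also wider, with a median width of 1128 bp against 644 bp and 591 bp. The number of lists is part of how the classes were made, so these heights are a description.

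Sites of the antibodies differed in where they lay relative to genes. Of the HOXA13-only sites, 33 (1.81%, 95% Wilson interval 1.29 to 2.53%) lay within 1 kb of a protein-coding start, and 40.6% lay over 100 kb away. Of the HOXD13-only sites, 13 (29.5%, 18.2 to 44.2%) lay within 1 kb of a start and 20.5% over 100 kb away. Shared sites resembled the latter, with 26.9% (26.2 to 27.6%) within 1 kb and 26.4% over 100 kb, where sites of any list had 11.7% and 28.2%. The contrast was wider in the lists of equal length. There 7 HOXA13-only sites (1.23%, 0.599 to 2.53%) and 294 HOXD13-only sites (62.8%, 58.4 to 67.1%) lay within 1 kb of a start, against 26.0% of shared sites. These intervals cover counting error only, and sites of 1 list are not replicates.

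Sequence at the summits followed the same division. CpG-rich sequence, here at least 50% C+G and a ratio of observed to expected CpG of at least 0.6 over 200 bp, surrounds most promoters of broadly expressed genes. It was found at 0.712% of HOXA13-only sites, 20.5% of HOXD13-only sites and 22.2% of shared sites. In lists of equal length it was found at 1 HOXA13-only site (0.176%) and 267 HOXD13-only sites (57.1%, 52.5 to 61.5%). The HOX13 consensus was found at 20.5% (18.7 to 22.4%) of HOXA13-only sites, 14.4% (13.9 to 15.0%) of shared sites and 4 HOXD13-only sites (9.09%, 3.59 to 21.2%), with 8.55% over sites of any list. In lists of equal length the same shares were 30.2% (26.5 to 34.1%), 17.3% and 3.42% (2.12 to 5.48%). Here too the intervals cover counting error only, and sites are not replicates of an antibody. The plot of site classes shows these shares side by side.

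**Figure D2:**
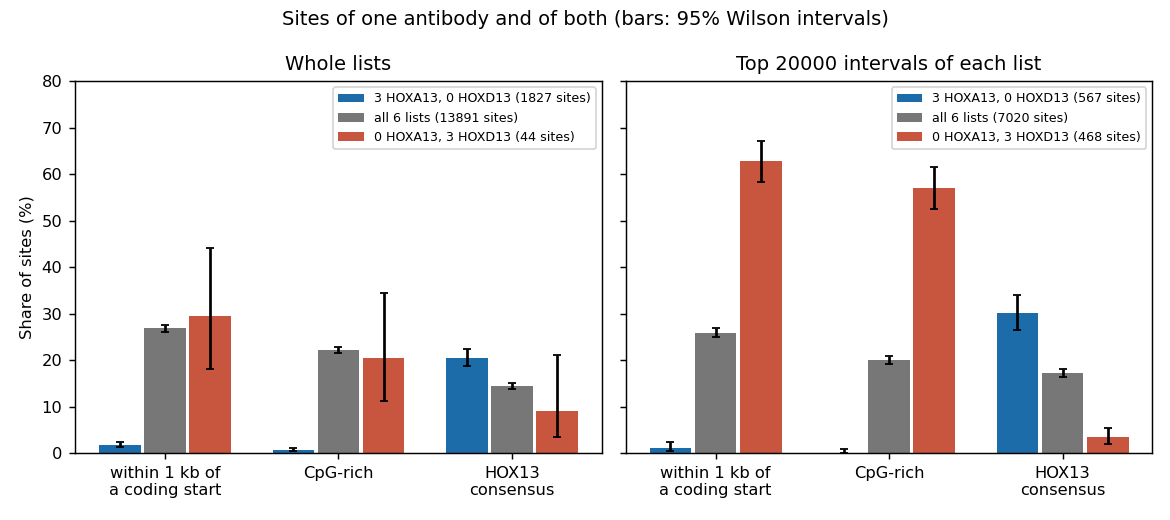
Share of sites (vertical axis, percent) of each class that lie within 1 kb of a protein-coding start, are CpG-rich, or hold the HOX13 consensus in the 50 bp at the summit, for whole lists and for the top 20000 intervals of each list. Column heights are shares and error bars 95% Wilson intervals. HOXD13-only sites exceed HOXA13-only sites in the share near starts (29.5% against 1.81% in whole lists), and HOXA13-only sites exceed them in the share with the consensus in lists of equal length (30.2% against 3.42%).

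The same question was put to single libraries, since these are the replicates. Within 1 kb of a start lay 18.6%, 17.4% and 16.5% of the top 10000 intervals of HOXA13 replicates 1 to 3 and 30.4%, 38.6% and 24.5% of those of HOXD13. The means were 17.5% ± 1.06 and 31.2% ± 7.07 (SD, n = 3 each), and every HOXD13 library was above every HOXA13 library. Over 100 kb from a start lay 30.8%, 31.5% and 33.2% of the HOXA13 intervals and 23.3%, 20.1% and 29.4% of the HOXD13 intervals, with means of 31.8% ± 1.23 and 24.3% ± 4.69, again without overlap. The consensus shares given above differed by 6.52 percentage points in the means (SD 3.03 with HOXA13 and 2.14 with HOXD13), and did not overlap either. Mean C+G content over 200 bp at the summits was 45.6%, 44.8% and 42.4% with HOXA13 and 47.9%, 52.0% and 45.4% with HOXD13, and here the groups overlapped.

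A two-sided exact permutation test of 3 libraries against 3 cannot give a p below 0.1. That value was reached for the shares near starts, far from starts and with the consensus (p = 0.1 each, 0.133 after Benjamini-Hochberg adjustment over 4 tests), and C+G content gave p = 0.2 by the same exact test. None of the 4 differences therefore passed 0.05. The replicates that differ in read length were also compared separately. With replicates 1 and 2 alone, HOXA13 minus HOXD13 was −16.5 percentage points within 1 kb of a start and 7.08 points for the consensus. Between the libraries numbered 3 the same differences were −8.00 and 5.41 points, so both kept their sign. Each library's values stand in the plot of shares by library.

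**Figure D3:**
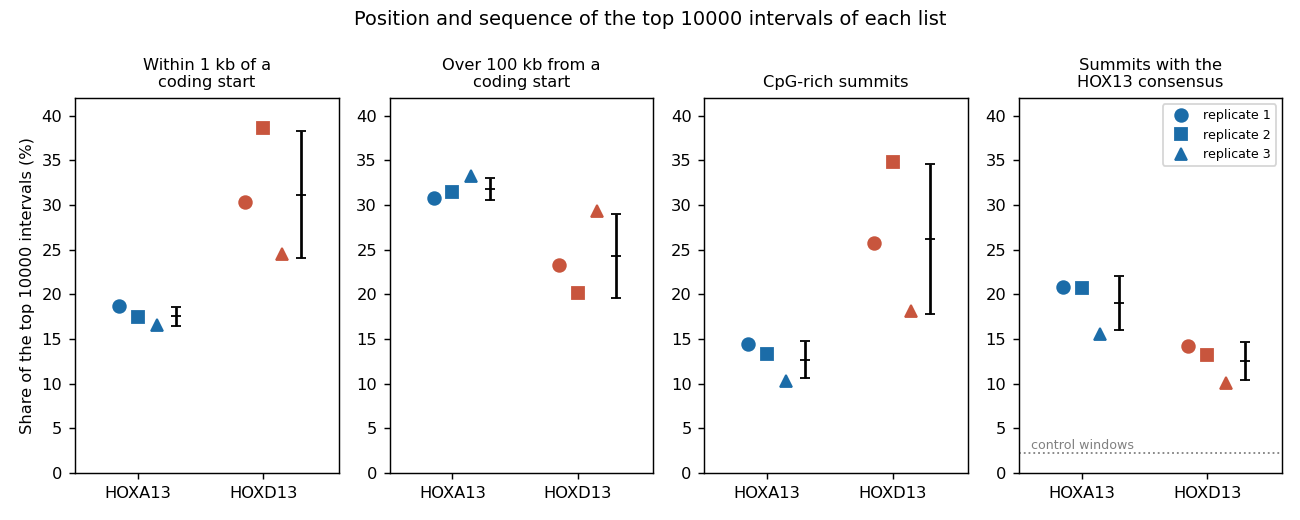
Shares of the top 10000 intervals of each library (vertical axis, percent) that lie within 1 kb of a start or over 100 kb from one, that are CpG-rich, or that hold the HOX13 consensus, for HOXA13 and HOXD13. Points are libraries, marked by replicate, error bars are means with SD, and the dotted line is the consensus share in flanking control windows. HOXD13 libraries lie at 24.5 to 38.6% for the share near starts and HOXA13 libraries at 16.5 to 18.6%.

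CpG-rich summits made up 12.7% ± 2.09 of the top HOXA13 intervals and 26.2% ± 8.38 of the top HOXD13 intervals, without overlap. The consensus was less frequent with HOXD13 also among intervals within 1 kb of a start, at 5.40%, 4.14% and 4.85% against 8.80%, 8.49% and 7.02% with HOXA13. Among intervals farther away it was found in 23.6%, 23.3% and 17.2% with HOXA13 and 18.1%, 18.8% and 11.8% with HOXD13, and these groups overlapped.

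Other short motifs were counted in the same windows on both strands. Higher in every HOXA13 library than in every HOXD13 library were CCAATAAA (3.15% ± 0.469 against 1.95% ± 0.367), the homeodomain core TAATTA (3.94% ± 0.460 against 2.62% ± 0.514), the PBX-HOX composite TGATTNAT (1.29% against 0.893%) and the E-box CAGATG (3.12% against 2.74%). Higher in every HOXD13 library than in every HOXA13 library were the GC box GGGGCGGGG, which SP and KLF factors bind (0.993% ± 0.160 against 2.47% ± 0.784), and the ETS motif CCGGAAG (0.477% against 1.12%). The groups overlapped for CTCGTAAA, another form of the consensus, and for the CTCF core, AP-1 (TGANTCA), RUNX (TGTGGTT), TEAD (ACATTCC), SOX (AACAATGG), TCF/LEF (ATCAAAG) and the palindromic NRF1 motif. In flanking windows of all merged sites the GC box was found in 0.166%, TAATTA in 1.53% and the E-box in 3.58%. A match is a description of sequence and not a bound site.

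At shared sites the question becomes one of height. Fold enrichment at the 13891 shared sites was quantile normalized across the 6 libraries and compared on the log2 scale with limma. Fold enrichments printed for single sites are values before normalization, and overlap of the groups there refers to these. With Benjamini-Hochberg adjustment, limma called 0 sites (0%) higher with HOXA13 and 0 (0%) higher with HOXD13 at 0.05, while 821 and 951 had an unadjusted p below 0.05. A fit with the replicate number as a block called 91 (0.655%) and 201 (1.45%). The other measures and scalings without the block gave 0 to 2 and 0 to 29. The number of calls thus rested on the block, and whether the numbers pair the libraries is not settled by these data. In simulated data of the same size, without a block, 27% of planted differences of 1 and 85% of planted differences of 2 on the log2 scale were called, together with 7 unplanted sites.

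The direction at shared sites depended on position. Quantile normalization gave the libraries the same distribution over these sites, so the balance over all of them was set in advance. A site counted as higher with 1 antibody is thus higher relative to all shared sites. Over all shared sites the median log2 difference, HOXA13 minus HOXD13, was 0.01, and 51.2% were higher with HOXA13. At the 3735 shared sites within 1 kb of a start it was −0.25, with 17.9% higher with HOXA13, and the blocked fit called 1 of them higher with HOXA13 and 155 higher with HOXD13. At the 3666 shared sites over 100 kb from a start it was 0.14, with 69.1% higher with HOXA13, and the blocked fit called 58 and 5. The 6490 sites between lay at 0.08 with 60.4% higher with HOXA13 and 32 and 41 called.

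CpG content and the consensus went along with this order. The median was −0.27 at 3079 CpG-rich shared sites, of which 15.8% were higher with HOXA13, and 0.17 at 2006 shared sites with the consensus, of which 71.6% were. Neither position nor CpG content alone held all of it. Sites within 1 kb of a start that were not CpG-rich had a median of −0.17 (1006 sites), and CpG-rich sites over 1 kb away had −0.19 (350 sites). Over 1 kb from a start the median was 0.18 with the consensus (1832 sites) and 0.08 without it (8324 sites).

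Per library, the median at shared promoter sites relative to all shared sites was −0.14, −0.18 and −0.09 on the log2 scale in HOXA13 replicates 1 to 3 and 0.09, 0.23 and 0.08 in HOXD13 replicates 1 to 3. The groups did not overlap, and the difference of −0.27 had p = 0.1 by the exact permutation test, the smallest it can give. For sites over 100 kb away the values were 0.13, 0.15 and 0.05 against −0.05, −0.08 and −0.02, also without overlap. The distribution of the differences by distance shows the shift of the promoter sites.

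**Figure D4:**
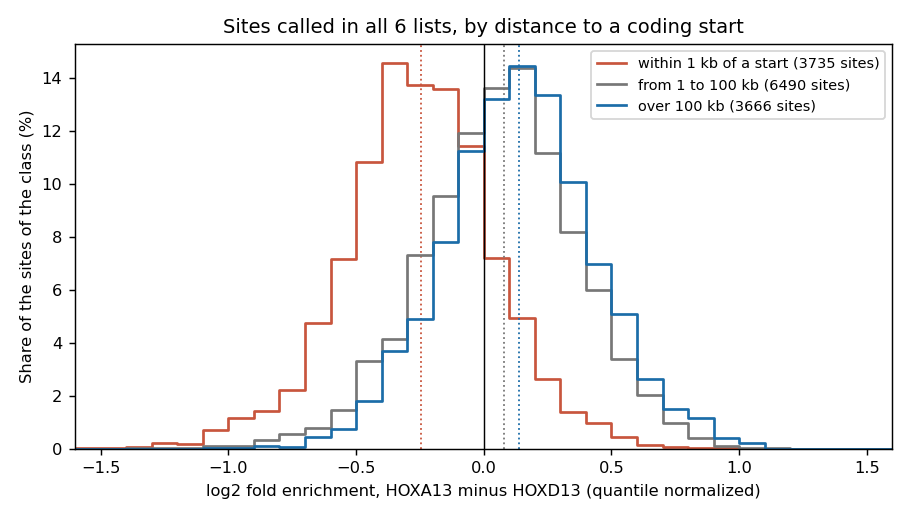
Distribution of the log2 difference in quantile-normalized fold enrichment, HOXA13 minus HOXD13 (horizontal axis), at sites called in all 6 lists, as the share of each distance class (vertical axis, percent). Sites within 1 kb of a start lie to the left of 0, with a median of −0.25, and sites over 100 kb away to the right, with a median of 0.14.

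The shared sites that leaned most to HOXD13 lay mostly at promoters. The lowest p was at Ube4b, a ubiquitin chain assembly factor, 50 bp from the start, where no HOXA13 value overlapped the HOXD13 values and limma gave a log2 difference of −1.55 (SE 0.197) with an adjusted p of 0.0741, or 0.00541 with the block. At a site 1018 bp from the start of Kmt2c, a histone methyltransferase, fold enrichment was 4.23, 4.26 and 4.56 with HOXA13. With HOXD13 it was 9.18, 11.6 and 8.58 (log2 −1.38). At Bcl9, a Wnt coactivator, it was 3.53, 3.88 and 2.62 against 5.48, 8.74 and 6.25 (−1.27). The groups did not overlap at either gene. At Six5, a homeodomain factor, they overlapped, with 6.49, 3.56 and 2.68 against 8.81, 11.9 and 5.92 (−1.40). Also among the lowest limma p-values in this direction were promoter sites of Egln2 (−1.28), an oxygen-sensing prolyl hydroxylase, and Rnh1 (−1.23), an inhibitor of ribonucleases. A site nearest Cct8l1 lay 13691 bp from its start (−1.18). Over these 7 sites the adjusted p was between 0.0741 and 0.126 by limma, and between 0.00541 and 0.0148 with the block.

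The shared sites that leaned most to HOXA13 lay mostly far from genes. At a site 322893 bp from Gxylt1, a glycosyltransferase gene, fold enrichment was 9.49, 8.95 and 5.39 with HOXA13 and 3.12, 3.65 and 2.73 with HOXD13 (log2 1.04, SE 0.192, limma adjusted p = 0.141, with the block 0.0170). Every HOXA13 value there was above every HOXD13 value. Sites nearest Ipo8 (170448 bp, log2 1.02), Flrt3 (701366 bp, 1.07), Tmpo (752296 bp, 0.99) and Pcdh17 (910372 bp, 1.03) followed, with Cmpk2 (0.96) and Lrmda (0.89). Only the site nearest Ifngr2 lay close to a start, at 1291 bp (0.93). None of these 8 sites was CpG-rich, whereas 6 of the 7 named in the other direction were. By limma without the block no site of either set passed 0.05.

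Summit windows from both ends of this ranking follow, with every CpG dinucleotide in capitals. The first pair, at the promoters of Rnh1 and Six5, held 11 and 7 CpG dinucleotides, and the second pair, the distal sites nearest Gxylt1 and Ipo8, held 0 and 1.
Rnh1, chr7:141172522-141172622: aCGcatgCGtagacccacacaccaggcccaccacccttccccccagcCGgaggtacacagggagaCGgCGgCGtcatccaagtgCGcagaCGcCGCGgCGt
Six5, chr7:19094054-19094154: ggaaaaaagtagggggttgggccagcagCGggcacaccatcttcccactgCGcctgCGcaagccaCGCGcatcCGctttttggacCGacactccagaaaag
Gxylt1, chr15:92952208-92952308: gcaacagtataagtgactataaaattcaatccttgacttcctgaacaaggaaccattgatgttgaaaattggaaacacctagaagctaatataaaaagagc
Ipo8, chr6:148660969-148661069: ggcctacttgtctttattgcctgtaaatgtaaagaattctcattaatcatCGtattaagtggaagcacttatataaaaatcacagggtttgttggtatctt

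At some HOXA13-only sites fold enrichment exceeded the median of the shared sites in single lists. The HOXA13-only sites of highest median percentile were nearest Ostf1 (220690 bp; fold enrichment 11.7, 10.3 and 2.31), Ipcef1 (10.7, 4.31 and 6.42), Tanc2, Cntn5, Cpeb2, Crb1, Car10 and Cntn3. Of these 8, 6 carried the consensus and none was CpG-rich. The HOXD13-only sites of highest percentile were nearest Msi2 (203 bp; 3.90, 4.73 and 5.67), an RNA-binding protein, Myoz2, Thra, Chst3, Ralyl, Pkm, Zcchc3 and Nefm. In the lists of equal length the leading HOXD13-only site lay 98 bp from Sumo3, a ubiquitin-like modifier, with 3.35 in HOXA13 replicate 1, no call in the other HOXA13 lists, and 6.60, 10.3 and 9.26 with HOXD13. The leading HOXA13-only site there was nearest Ctla4, 18836 bp away, with 15.6, 12.6 and 6.41 with HOXA13 and calls of 4.73 and 2.82 in the whole lists of HOXD13 replicates 2 and 3. These last pairs were chosen after their values were seen.

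Counted by gene, 17345 of the 21827 genes (79.5%) were nearest to at least 1 site and 7146 (32.7%) to a shared site. HOXA13-only sites fell to 1452 genes (6.65%), 1078 of which also had a shared site, and HOXD13-only sites to 44 genes, 18 of which had no shared site. In lists of equal length 508 genes had a HOXA13-only site, 458 had a HOXD13-only site and 17 had both. Genes with long flanking intervals collect more sites under this assignment. The most shared sites, 23 each, were nearest Robo1, an axon guidance receptor, Tcf4, a bHLH factor, Mecom, a zinc finger factor, and Adgrl3, an adhesion receptor, followed by Auts2 with 21 and Sox9, Bmpr1b and Tcf7l2 with 19 each. The most HOXA13-only sites were nearest Adgrl3 (7), Efna5 and Zfhx3 (6 each) and Tenm3, Sorcs3 and Lrmda (5 each).

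Starts themselves were counted in whole lists. The start of 4407 genes (20.2%) lay within 1 kb of a site called in all 6 lists and that of 7920 (36.3%) near no site of any list. Starts near sites of at least 2 lists of 1 antibody and none of the other numbered 222 (1.02%) for HOXA13 and 90 (0.412%) for HOXD13. That order did not hold for sites by the same rule in lists of equal length. There 60 of 2435 such HOXA13 sites (2.46%) lay within 1 kb of a start, against 1015 of 2067 such HOXD13 sites (49.1%). Sites of any list gave 19.3%.

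Of 45 limb patterning genes, 35 had a shared site, 15 a HOXA13-only site and none a HOXD13-only site, where 32.7%, 6.65% and 0.202% of all genes did. These genes lie among many sites, and by site the list was closer to the background. They held 170 shared sites among 1426 in all (11.9%, where all sites gave 10.0%) and 29 HOXA13-only sites (2.03%, where all sites gave 1.32%). In lists of equal length they held 105 shared (22.2%), 8 HOXA13-only (1.69%) and 0 HOXD13-only sites among 473, where all sites gave 17.9%, 1.45% and 1.20%.

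Among the transcription factors, Sox9, the master regulator of cartilage, had 19 shared sites among 132, and Hand2, which acts upstream of Shh, 12 among 50. Gli3, the mediator of Hedgehog signals, had 10 among 69, and Sall1, a zinc finger factor of the digits, 9 among 94. Tbx3 had 7 among 73 and Tbx5 7 among 38, where 10.0% of all sites were shared. At the highest shared site of Sox9, 556909 bp from its start, fold enrichment was 15.1, 13.3 and 7.30 with HOXA13 and 5.81, 12.1 and 5.88 with HOXD13, and the groups overlapped. At that of Tbx3, 409292 bp away, it was 16.4, 13.2 and 9.83 against 5.42, 8.99 and 7.37, without overlap (log2 0.50, limma adjusted p = 0.373, with the block 0.170). This was the largest difference among the highest sites of the 35 genes, and none of those 35 sites passed 0.05 in either fit.

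Among signalling genes, Bmp2 had 9 shared sites among 61 and Fgf10, which maintains outgrowth from the mesenchyme, 4 among 39. The highest site of Bmp2, at 14352 bp, had 13.6, 12.0 and 7.20 with HOXA13 and 9.31, 11.3 and 6.47 with HOXD13, with overlap. Epha4 and Epha7, receptors for ephrins, had 14 shared sites among 109 and 7 among 71, again beside 10.0% of all sites. Shh and Fgf8, signals of the posterior margin and the apical ridge, had none.

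HOXA13-only sites of the limb list were nearest Hand2 (4), Sox9, Sall1, Tbx3 and Epha4 (3 each), Fgf10, Meis1 and Shox2 (2 each) and 7 further genes (1 each). Only 2 of the 29 carried the consensus, and their fold enrichment did not exceed 5.93 in any list. At Shox2, a regulator of limb bone growth, both lay within 844 bp of a start. The start of Shox2 was near a site in 3 HOXA13 lists and no HOXD13 list. The higher of the pair had fold enrichments of 4.52, 3.05 and 2.79. With the assignment restricted to 100 kb, 76 shared sites remained with the 45 genes, and the number was unchanged for 22 of them. Those 22 include genes that had no shared site, such as Shh and Fgf8. Of the genes with most shared sites, Sox9 fell from 19 to 1, Epha4 from 14 to 1 and Hand2 from 12 to 6. The plot of limb genes gives all 45 genes without this restriction.

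**Figure D5:**
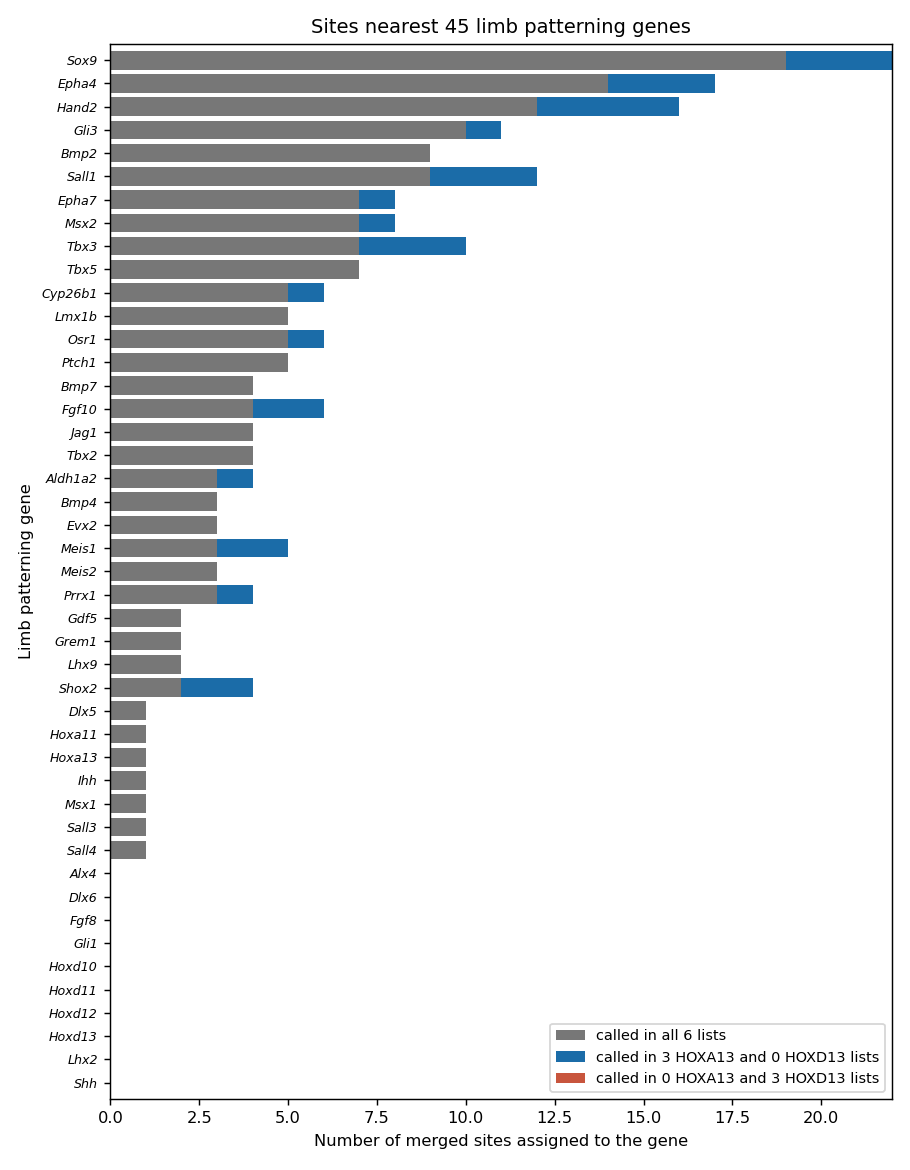
Number of merged sites assigned to each of 45 limb patterning genes (horizontal axis), stacked as sites called in all 6 lists (grey) and HOXA13-only sites (blue). Sox9 has the most shared sites, 19, and Hand2 the most HOXA13-only sites, 4, and no gene has a HOXD13-only site.

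At the 170 shared sites of the limb list the median log2 difference was 0.12, and 110 (64.7%) were higher with HOXA13. The 164 of them over 1 kb from a start had a median of 0.13, where all shared sites over 1 kb away had 0.10, so the list stood close to other distal sites. The 6 within 1 kb had −0.30, near the −0.25 of all shared promoter sites. The blocked limma fit called 3 of the 170 higher with HOXA13 and 0 higher with HOXD13, and limma without the block called 0, with unadjusted p below 0.05 at 14 and 5.

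Of the 150 sites nearest the HoxD genes, Evx2, Lnpk or Mtx2, 27 (18%) were shared, where all sites gave 10.0%. Nearest to the HoxD genes or to the genes that flank them (Evx2, Lnpk and Atp5g3 on one side, Mtx2 on the other) were 41 shared sites, 13 nearest Mtx2, 8 nearest Lnpk, 14 nearest Atp5g3, 3 nearest Evx2, 2 nearest Hoxd9 and 1 nearest Hoxd4. There was 1 HOXA13-only site, nearest Mtx2, and no HOXD13-only site. Of the 41 shared sites, 21 were higher with HOXA13, the differences ran from −0.61 to 0.62, and the median was 0.00. The lowest adjusted p was 0.325 by limma, or 0.0950 with the block.

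Enhancer II1 of the centromeric regulatory domain lay in 1 of these sites, at chr2:74074535-74076313, 164390 bp from the start of Atp5g3 and outside coding genes. Its fold enrichment before normalization was 9.02, 10.2 and 4.71 with HOXA13 and 7.65, 7.87 and 4.89 with HOXD13, so the groups overlapped. After normalization the log2 difference was −0.17 (SE 0.229, limma adjusted p = 0.789). The recovered pileups at its summit were 408, 262 and 184 read ends against 98, 281 and 119. Its summit window is printed because it holds the consensus, in capitals, as the reverse complement of CCAATAAA.
Atp5g3, chr2:74075666-74075766: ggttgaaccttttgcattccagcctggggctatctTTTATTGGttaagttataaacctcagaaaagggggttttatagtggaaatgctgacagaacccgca
At the other cluster, the HoxA genes and Evx1 held 15 shared sites among 57 (26.3%) in whole lists. Hoxa13 itself had 1 shared site, 6492 bp from its start, with 6.19, 5.11 and 2.81 against 3.43, 4.23 and 2.75. The start of Hoxa13 lay near no site of any list.

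Gene classes were compared by the share of each library's sites that were nearest to their members. Of 34 lists, 6 did not overlap between antibodies in whole lists. Among single genes, 3.29% were higher with HOXA13 and 5.05% higher with HOXD13 without overlap. Single genes hold fewer sites than most lists, so these shares are not a like baseline. Without a difference between antibodies, the exact permutation test gives a list a probability of 0.1 of not overlapping. Some genes, such as Hand2, stand in several lists, so the lists are not independent. Genes of Hedgehog signalling took 0.283%, 0.269% and 0.276% of HOXA13 sites and 0.344%, 0.320% and 0.320% of HOXD13 sites. Histone genes took 0.124%, 0.157% and 0.158% against 0.277%, 0.160% and 0.225%, ribosomal protein genes 0.331% ± 0.00498 against 0.387% ± 0.0448, cell cycle genes 0.201% ± 0.00868 against 0.243% ± 0.0332 and Notch pathway genes 0.214% ± 0.0127 against 0.246% ± 0.0196. T-box genes were the 1 list higher with HOXA13, at 0.272% ± 0.00539 against 0.249% ± 0.0137. The smallest adjusted p over the 34 exact permutation tests was 0.567, so no list passed.

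With lists of equal length 9 of the 34 did not overlap, and the smallest adjusted p of the exact permutation tests was 0.378. Among single genes 2.22% and 9.55% did not overlap, with the same limits as a baseline. The 5 higher with HOXA13 were the limb patterning genes (1.36%, 1.35% and 1.46% against 1.17%, 1.17% and 1.31%), the HoxB and HoxC genes, the Sall, Irx, Dach, Eya and sine oculis homeobox genes (0.626% ± 0.0388 against 0.488% ± 0.0302), the Msx, Dlx, LIM and paired-type homeobox genes, and neuronal genes. The 4 higher with HOXD13 were cell cycle genes, chromatin regulators (0.206%, 0.183% and 0.186% against 0.280%, 0.267% and 0.270%), ribosomal protein genes (0.390% ± 0.00614 against 0.467% ± 0.0487) and histone genes (0.242% ± 0.0202 against 0.308% ± 0.0136). Cell cycle, ribosomal protein and histone genes were thus higher with HOXD13 under both lengths, while the T-box, Hedgehog and Notch lists overlapped at equal length.

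Starts were often marked in the lists higher with HOXD13 at equal length, though not only in them. A site called in all 6 lists lay within 1 kb of the start of 4407 of all 21827 genes (20.2%). The same held for 53 of 84 histone genes (the list was built by symbol and includes H13, which encodes a peptidase). It held for 18 of 32 cell cycle genes, 18 of 38 chromatin regulators and 38 of 83 ribosomal protein genes. Among HoxA genes, a list that overlapped between antibodies, it held for 6 of 12. Limb patterning genes, with 9 of 45 (20%), were close to the share of all genes, and olfactory receptor genes had 2 of 1133. Within the lists, HOXD13-only sites in whole lists were nearest to Tcf7l2 of the Wnt pathway, Sema4d, Tcf12, Foxo3, Col1a2 and Zfp36 only. At equal length chromatin regulators held 6 HOXD13-only (6.38%) and 0 HOXA13-only sites among 94, and the Sall, Irx, Dach, Eya and sine oculis homeobox genes 0 and 8 (4.06%) among 197, where all sites gave 1.20% HOXD13-only and 1.45% HOXA13-only. These lists were picked from the 34 after their values were seen. Nearness to a start moved with these gene classes, and its part in their difference was not tested.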

How the data were processed

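Groups were taken from sample titles. For the wt libraries the authors trimmed reads with cutadapt, mapped pairs with bowtie2 on mm10, filtered them with samtools, treated duplicates with Picard and called peaks per library with MACS2, with read ends extended to 200 bp, a q of 0.05 and no control. The study's sources differ on whether duplicates were removed or only marked, so pileups may count them. The deposited fold enrichment gives the ratio of summit pileup over the local background. The −log10 p-values and −log10 q-values deposited by the authors test the same pileup, and the deposited score is derived from the −log10 q-value. A ratio of this kind falls with library background, so site classes were compared within a list and limma used quantile-normalized heights in its main fit. Fold enrichments printed for single sites, and whether their groups overlap, are not normalized and carry such differences between libraries.

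Summits of 1 interval were joined, and intervals merged by at least 1 bp. Pileups were recovered from the fold enrichment and −log10 p (whole within 0.01 for over 99.9% of summits in each library). Protein-coding starts came from GENCODE basic on GRCm38, and sequence from RefSeq GRCm38.p6. Coordinates are 1-based. Libraries were compared by two-sided exact permutation tests with Benjamini-Hochberg adjustment, and shared sites by limma 3.58.1 (R 4.3.3). Other tools were matplotlib 3.10.9, pysam 0.24.0, scipy 1.17.1, pandas 2.3.3 and numpy 2.4.6 in Python 3.11.15. Merging and recovery were tested on simulated data. Gene lists, motifs and the comparison were chosen with earlier results of these data known. The sites named were the 8 of each class with the highest median percentile of fold enrichment, the 8 lowest limma p-values in each direction (1 of which is not reported here), and the 8 genes with most sites of a class. Alternatives were other list lengths, thresholds, windows, scalings and pileups, assignment within 100 kb, libraries left out and a replicate block.

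The replicate numbers in the titles may pair libraries. Deviations from the mean of each antibody were correlated between libraries of the same number. For calls at 20312 sites merged from the top 10000 intervals the correlation was 0.111, 0.143 and 0.348 in replicates 1 to 3, each over 0.1. In log2 fold enrichment of the shared sites they were 0.0702, 0.237 and 0.512, and HOXA13 replicate 1 with HOXD13 replicate 2 reached 0.451. The pairing therefore depended on the measure, and blocked values are given beside the limma result. The peak lists of the mutant line were not used.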

Additional observations from a re-analysis of the deposited data

How the results depend on the processing

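The number of HOXA13-only sites, 1827 in whole lists, was 567 in the top 20000 intervals of each list, 384 in the top 10000, 622 at a fold enrichment of at least 5, 9084 when 2 lists sufficed, 7322 without both replicates 3, and 1979 to 6546 with 1 replicate left out. HOXD13-only sites, 44 in whole lists, numbered 468, 410, 139 with overlapping summits required, 661 with 2 lists, 265 without both replicates 3 and 49 to 475 with 1 replicate left out. Shared sites, 13891 in whole lists, numbered 7020 in the top 20000, 3175 in the top 10000, 1872 at a fold enrichment of at least 5, 7259 at a −log10 q of at least 5, 8935 with overlapping summits and 27860 when 2 lists sufficed. At a fold enrichment of at least 5 there were 32 HOXD13-only sites beside the 622 HOXA13-only sites. At a −log10 q of at least 5 there were 30 beside 1289. Among the alternatives run, the exclusive classes were thus near equal in size only in lists cut to the same length. HOXA13-only sites stayed more numerous under the thresholds on fold enrichment and −log10 q, which leave the list lengths unequal. Leaving out both replicates 3, the top 10000 lists, the centred pileups and the comparison of both replicates 3 alone were added after the data were seen.

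With the replicate block limma called 91 shared sites higher with HOXA13 and 201 higher with HOXD13, where the unblocked fit called 0 and 0. Under median centring it called 1 higher with HOXD13, on recovered pileups 2 and 29, on centred pileups 8 higher with HOXD13, and none with any single library left out. The number of non-overlapping gene lists was 6 in whole lists and 3 with assignment within 100 kb. The shares of the top intervals kept their direction under all alternatives run, from −17.0 to −5.07 percentage points within 1 kb of a start, 2.90 to 10.1 over 100 kb, 1.20 to 10.8 for the consensus and −5.66 to −1.51 for C+G content. With the block their sign-flip p was 0.25, the smallest 3 pairs allow. Intervals cover counting error only, and the part of depth in the exclusive classes was not tested.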
